A study of Mus musculus with 4 samples.

Results

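The 10 genes described here are 9 cathepsins (Ctsa, Ctsb, Ctsc, Ctsd, Ctsh, Ctsl, Ctss, Ctsw and Ctsz) and the lysozyme gene Lyz2, taken by name from the 14697 genes counted in mouse peripheral blood. Cathepsins are proteases, most of which work in the acidic lysosome, where they break down proteins that a cell has taken in or is recycling. In antigen-presenting cells they also trim the invariant chain and prepare peptides for MHC class II, and in cytotoxic lymphocytes they process or accompany the granule proteases. Lysozyme cuts the cell wall of bacteria and is made in large amounts by monocytes, macrophages and neutrophils.

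Blood came from C57BL/6 female mice aged 4 months (young) or 24 months (old), and each of the 2 young and 2 old samples was a pool of 2 mice. Cells were isolated over a density medium, which leaves most granulocytes behind, and the remaining red cells were lysed before single-cell 3′ RNA sequencing. The sample is the replicate throughout, so p-values measure the spread between pools (n = 2 per age) and single mice cannot be told apart. The samples held 3902 and 3857 young and 4642 and 2187 old cells, with a median of 2233 to 3482 unique molecular identifiers (UMIs, counted molecules) per cell.

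Cells were placed in gates by raw UMIs of marker genes, and none of the 10 members was used in a gate. The gates held 352 classical, 64 intermediate and 403 nonclassical monocytes, which differ in Ly6c2 (at least 4, 2 or 3, and at most 1 UMIs). They also held 56 dendritic cells (DC, by Cd209a), 32 macrophages (by C1qa, C1qb and C1qc), 38 basophils, 320 NK cells, 2605 T cells and 8249 B cells. Another 2469 cells met no gate. A cell that met more than 1 gate stayed in the first of macrophages, DC, basophils, monocytes, NK, T and B cells. A cell of the DC gate could therefore also meet the monocyte rule. Genes that no gate used bore the labels out. Ccr2, the receptor that brings classical monocytes out of the marrow, was at 943 to 1440 CPM (UMIs per 1000000 UMIs of a gate in a sample) in classical and 90.3 to 540 CPM in nonclassical monocytes, and Nr4a1, a factor that nonclassical monocytes need, at 67.3 to 97.5 against 268 to 599.6 CPM. The macrophage gate held 2 to 4 cells in 3 samples and 23 in old sample 2, so its levels are given without a test, except where gates were set on thinned cells. Mmp9 and Cxcr2, defining neutrophil genes, had no UMI in any monocyte gate of any sample, while the 10 neutrophil genes summed to 45.1 to 340 CPM there. Red-cell RNA was spread through all gates (4241 to 106020 CPM in the DC), and platelet genes were at 0 to 3.26 CPM in young and 153 to 363 CPM in old classical and nonclassical monocytes. The samples shared 11 to 24 cell barcodes in each pair.

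The genes lie on GRCm38 (GENCODE M21) at chr10:117277331-117282321 (Lyz2), chr7:88278085-88310888 (Ctsc) and chr3:95526786-95556403 (Ctss), Ctsa and Ctsz share chromosome 2, and Ctsd lies on chromosome 7 with Ctsc. The sequence before the start site is shown for Lyz2 and Ctsc, which were both lower in nonclassical monocytes and DC, and for Ctss, which stayed within a narrow range in the monocyte gates. RefSeq promoter sequences (GRCm38.p6) were matched for 7 of the 10 members. Each run ends at the base before the annotated gene start and reads 5′ to 3′ on the strand of the gene, and capitals mark GAGGAA, the core bound by the myeloid factor PU.1, on either strand.
Lyz2, chr10:117282322-117282522, minus strand: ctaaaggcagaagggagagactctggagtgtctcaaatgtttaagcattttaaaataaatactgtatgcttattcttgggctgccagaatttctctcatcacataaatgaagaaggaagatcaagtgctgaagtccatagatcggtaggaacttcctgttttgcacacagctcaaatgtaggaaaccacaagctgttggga
Ctsc, chr7:88277835-88278084, plus strand: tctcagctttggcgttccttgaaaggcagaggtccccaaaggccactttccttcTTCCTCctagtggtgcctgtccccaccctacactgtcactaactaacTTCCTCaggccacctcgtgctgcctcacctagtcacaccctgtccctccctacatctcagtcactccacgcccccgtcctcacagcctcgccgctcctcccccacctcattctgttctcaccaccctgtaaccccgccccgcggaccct
Ctss, chr3:95526536-95526785, plus strand: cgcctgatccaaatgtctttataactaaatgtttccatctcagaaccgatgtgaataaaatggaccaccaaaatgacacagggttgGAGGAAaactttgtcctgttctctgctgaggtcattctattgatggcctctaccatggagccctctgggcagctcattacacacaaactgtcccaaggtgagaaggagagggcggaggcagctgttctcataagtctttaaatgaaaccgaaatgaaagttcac
GAGGAA occurred 2 times before Ctsc, 1 time before Ctss and 0 times in the Lyz2 window. The other matched members, Ctsa, Ctsd, Ctsl and Ctsz, had 0 matches, and 23.3% of 32851 promoters held it within 250 bases. CACGTG, the palindromic E-box core, was counted in the 250 bases before each RefSeq start site. It occurred 2 times for Ctsd, 1 time for Ctsl and 1 time for 1 of the 2 Ctsa start sites, against 6.02% of promoters. These start sites lie inside the annotated genes, so all or part of each of these windows lies within the gene. The matches are letters in a window and were not tested as binding sites.

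Lyz2 was high in the myeloid gates and low in lymphocytes. In classical monocytes it stood at 38383 and 31767 CPM in the young and 30295 and 31614 CPM in the old samples, and in nonclassical monocytes at 14757, 13445, 13531 and 16954 CPM. Every classical value lay above every nonclassical value. Macrophages, which were few, had 51980, 73717, 19758 and 40313 CPM, and the DC 13314, 8995, 13592 and 5885 CPM. B, T and NK cells held 53.1 to 427 CPM, and basophils 177 to 396 CPM.

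Of the 8 members tested between the monocyte subsets, 4 differed, where 28.7% of all 2814 genes tested did. Lyz2 was lower in nonclassical monocytes by a log2 fold change of -1.23 ± 0.09 (SE, edgeR adjusted p = 9.4e-08). Ctsc, the dipeptidyl peptidase that activates granzymes and neutrophil serine proteases, fell furthest. It was at 607 and 581 CPM in young and 877 and 929 CPM in old classical monocytes, against 155, 182, 226 and 403 CPM in nonclassical ones. The ranges did not overlap, and the log2 difference was -1.69 ± 0.15 (adjusted p = 5.7e-07). Intermediate monocytes lay between, at 299.7, 441, 532 and 557 CPM.

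Ctsb, a cysteine protease of broad reach, moved the other way. It was at 657, 682, 652 and 717 CPM in classical and 1470, 1227, 1455 and 1412 CPM in nonclassical monocytes, so that all 4 nonclassical values were above all classical ones (log2 difference 1.00 ± 0.09, adjusted p = 6e-07). Ctsh, an aminopeptidase, was at 541 to 657 CPM in classical and 332 to 455 CPM in nonclassical monocytes (log2 difference -0.67 ± 0.13, adjusted p = 0.0011). This difference did not pass when cells were thinned to 1000 UMIs before gating (-0.32 ± 0.18, adjusted p = 0.42) or with stricter gates (-0.49 ± 0.18, adjusted p = 0.057). A nonclassical cell held a median of 2388 UMIs and a classical one 4656.

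The other 4 tested members did not pass between the subsets. Ctss, which degrades the invariant chain in antigen-presenting cells, was the most even, at 1757 to 1936 CPM in classical and 1517 to 1942 CPM in nonclassical monocytes (log2 difference -0.17 ± 0.10, adjusted p = 0.22). The carboxypeptidases Ctsa (-0.21 ± 0.15) and Ctsz (-0.19 ± 0.12) and the aspartic protease Ctsd (-0.26 ± 0.15) had adjusted p-values of 0.32, 0.29 and 0.21. The median over the 8 members was -0.24 and over all genes tested 0.004.

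Ordered by mean level over the samples, most neighbouring gates overlapped. Ctsc in classical monocytes, Ctsh in DC and Ctsw in NK cells were the members whose highest gate lay apart from the next. For Ctsh the DC range (822 to 1002 CPM) still overlapped that of intermediate monocytes (386 to 849 CPM), which came after classical monocytes in the order. The mean of Ctsc was 748 ± 180.0 CPM (SD, n = 4) in classical monocytes, that of Ctsh 914 ± 74.1 CPM in DC, and that of Ctsw 720 ± 134 CPM in NK cells, followed by 201 ± 29.7 CPM in T cells. Ctsa and Ctsl overlapped between every pair of neighbours in their order, and for Ctss the DC lay apart from B cells (514 ± 29.1 CPM), and these from T cells.

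**Figure D1:**
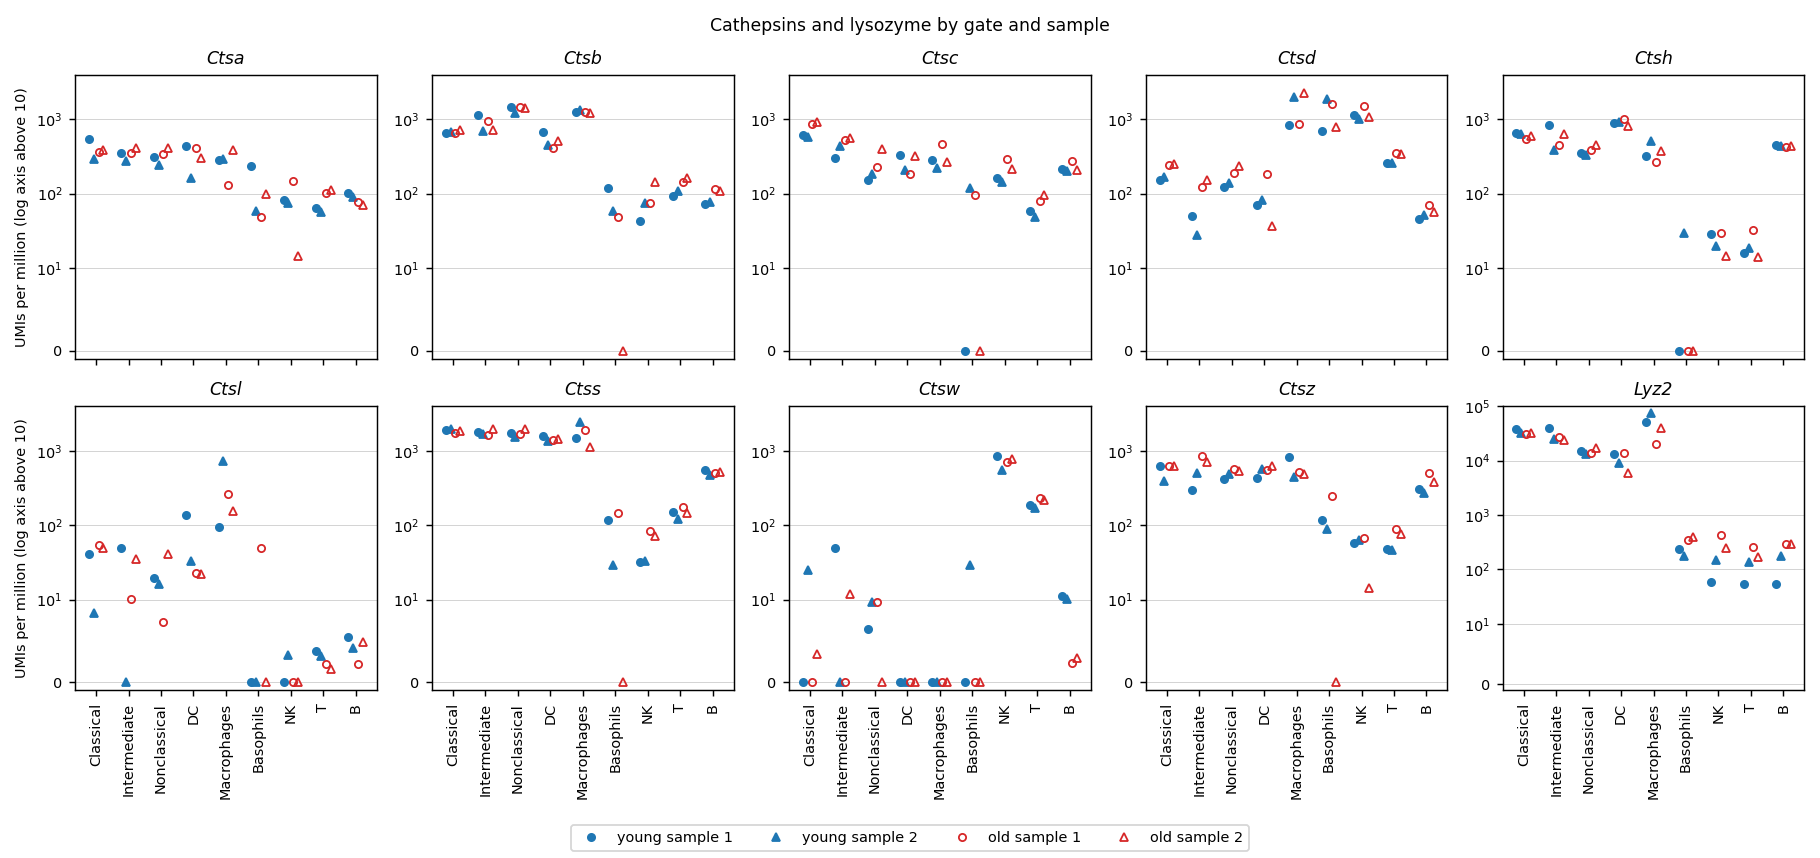
Level of each member (CPM, log axis above 10) in 9 gates, with 1 point per sample, young samples filled and old samples open. Lyz2 spans from 30295 to 38383 CPM in classical monocytes to 53.1 to 427 CPM in lymphocytes, Ctsd lies at 705 CPM or more in macrophages, basophils and NK cells, and Ctsw is high in NK and T cells.

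Of 6 listed inhibitors of cathepsins and serine proteases, 2 were tested and went opposite ways. Cst3 (cystatin C), an inhibitor of secreted and lysosomal cysteine cathepsins, was at 2736 to 3265 CPM in classical and 5650 to 7553 CPM in nonclassical monocytes (log2 1.09 ± 0.08, adjusted p = 9.6e-08). Cstb (stefin B), which inhibits them in the cytosol, was at 337 to 513 against 70.9 to 224 CPM (log2 -1.31 ± 0.17, adjusted p = 4.3e-05). Of 16 tested lysosomal enzymes 2 were higher and 2 lower in nonclassical monocytes, of 13 membrane and accessory proteins 4 were higher and 5 lower, and of 11 subunits of the vacuolar ATPase, the proton pump, 2 were lower. Over all genes 28.7% were called in this comparison. The medians of these 3 lists were -0.07, -0.08 and -0.21. The phosphatase Acp5 (log2 1.76 ± 0.28) and the metal transporter Slc11a1 (1.58 ± 0.23) were higher, and the cholesterol-binding Npc2 (-1.41 ± 0.11) and progranulin, Grn (-1.03 ± 0.13), were lower, all with adjusted p under 0.001 in edgeR.

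DC differed from classical monocytes at 5 of 9 tested members, where 8.22% of 3590 genes tested differed. Lyz2 was lower (log2 -1.78 ± 0.12, edgeR adjusted p = 2.5e-07), as was Ctsc at 330, 211, 182 and 326 CPM (-1.51 ± 0.18, adjusted p = 5.9e-05). These 2 differences were also called by DESeq2. By mean level Ctsh was highest in DC of all gates, at 904 and 927 CPM in the young and 1002 and 822 CPM in the old samples. Every DC value of Ctsh exceeded every classical value (0.54 ± 0.12, edgeR adjusted p = 0.012). Ctsd was lower, at 69.5, 81.3, 182 and 37.0 CPM (-1.47 ± 0.33, adjusted p = 0.012), and so was Ctss, at 1366 to 1564 CPM (-0.42 ± 0.11, adjusted p = 0.029). The calls of Ctsh, Ctsd and Ctss did not hold in DESeq2 (adjusted p = 0.18, 0.065 and 0.33), and those of Ctsh and Ctsd also failed without old sample 2 (adjusted p = 0.11 and 0.20). Without young sample 2 that of Ctsh had an adjusted p of 0.052. The call of Ctss failed without any 1 of the 4 samples (adjusted p = 0.061 to 0.13). Ctsa, Ctsb, Ctsl and Ctsz did not pass. The median over the 9 members was -0.42 and over all genes 0.016.

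**Figure D2:**
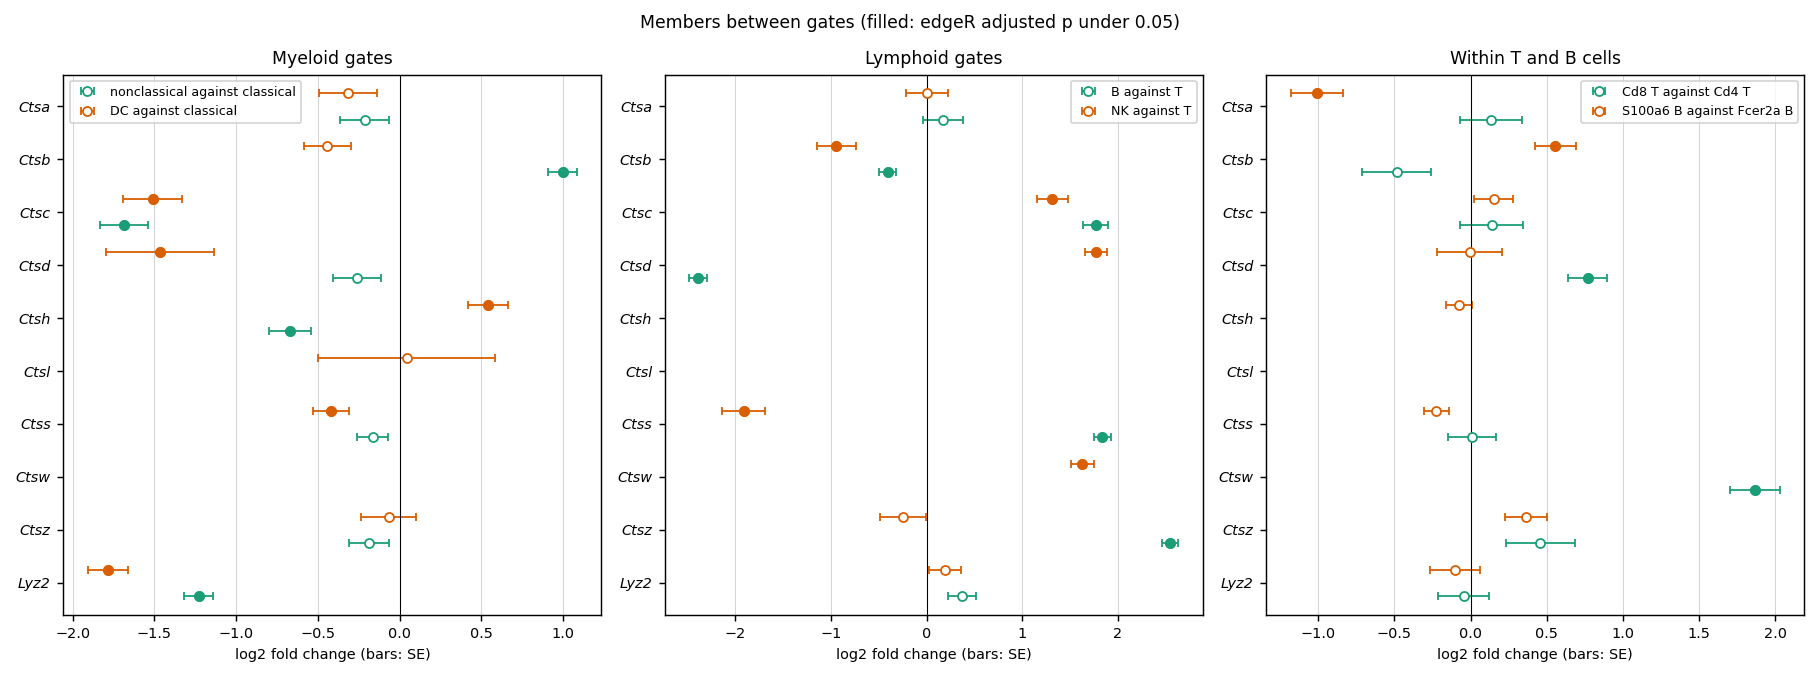
Log2 fold change (points) with its SE (bars) of each tested member in 6 comparisons of gates, filled where the edgeR adjusted p was under 0.05. Ctsc and Lyz2 are filled and left of 0 in the nonclassical and DC comparisons, Ctsb is filled and right of 0 in the nonclassical and S100a6 B cell comparisons, and Ctsc, Ctss and Ctsz lie to the right in B against T cells.

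The DC gate was not even in Lyz2. Of its 56 cells, 33 had under 20 Lyz2 UMIs (median 4) and 23 had at least 20 (median 65), while their median depths were 5174 and 5186 UMIs. In classical monocytes 98.9% to 100% of cells of a sample had at least 20, and in nonclassical monocytes 65.8% to 76.3%. The Lyz2-rich cells were 6 of 13, 5 of 14, 5 of 8 and 7 of 21 DC in young 1, young 2, old 1 and old 2. Ctsc was at 147 CPM in the Lyz2-poor and 478 CPM in the Lyz2-rich DC, summed over samples, while Ctss (1426 and 1451 CPM) and Ctsh (967 and 767 CPM) lay closer. Cd209a, the gating gene, was alike in the sums (1279 and 1171 CPM). Single samples went both ways for Ctss, at 1123 and 2054 CPM in young 1 and 1957 and 1017 CPM in old 1. The same held for Cd209a, at 1607 and 833 CPM in young 2 and 1102 and 1403 CPM in old 2. Ccr2 was at 509 and 1287 CPM in the sums, and Csf1r, the receptor for the monocyte growth factor, at 90.5 and 272 CPM. Flt3, the receptor for a DC growth factor, was at 181 and 115 CPM, but at 125 and 191 CPM in old 2. The limit of 20 was set after the counts had been seen, and the 2 sets are a division by a member, so these values are a description without a test.

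**Figure D3:**
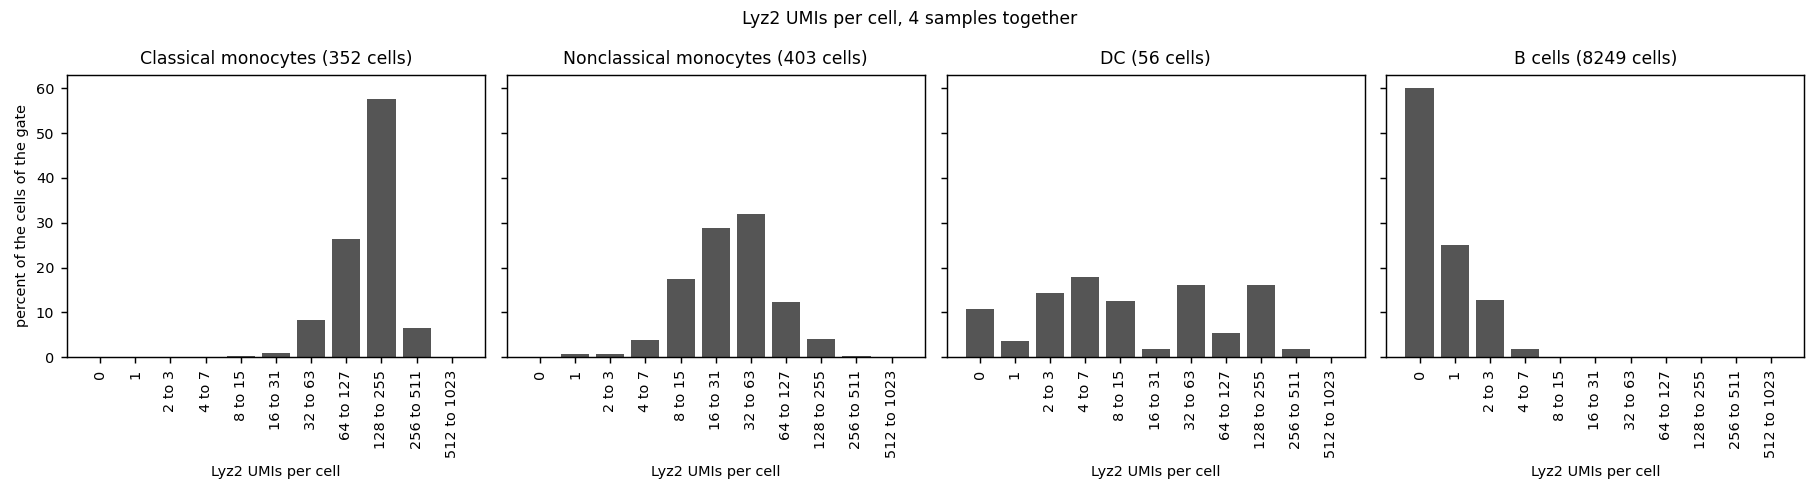
Percent of the cells of a gate by their number of Lyz2 UMIs, the 4 samples together, in classical monocytes, nonclassical monocytes, DC and B cells. Classical monocytes lie mostly at 128 to 255 UMIs, DC fall on both sides of the 16 to 31 bin, which holds 1 cell, and 60.1% of B cells hold no Lyz2 UMI.

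Macrophages and basophils stood out for Ctsd, as did NK cells (1011 to 1528 CPM). The macrophage values were 838, 1975, 856 and 2249 CPM and the basophil values 705, 1856, 1606 and 791 CPM, next to 152 to 250 CPM in classical monocytes. Ctsl, which was scarce in blood with 407 UMIs in all cells, reached 93.2, 731, 263 and 157 CPM in macrophages and at most 54.7 CPM in classical monocytes. Ctsb in macrophages, at 1233 to 1316 CPM, lay among the nonclassical values. The basophil gate held 5, 20, 9 and 4 cells, and basophil levels were not tested. With gates set on all UMIs of a cell, the samples held 4, 3, 2 and 23 macrophages, and too few held 5 for a test. Gating on thinned cells cannot raise C1q counts. Macrophages gained that way had more than 2 UMIs of Cd79a and Cd79b, or a Cd3 UMI, before thinning. The part of their B or T cell RNA in the values below was not tested. With gates set on cells thinned to 1000 UMIs, 3 samples could be compared (5, 11 and 20 macrophages against 7, 7 and 9 DC), and 3 of 8 members were called higher in macrophages, where 4.77% of 3604 genes differed. They were Ctsd (log2 4.97 ± 0.52, edgeR adjusted p = 1.7e-18), Lyz2 (3.66 ± 0.56, adjusted p = 5.7e-09) and Ctsb (1.97 ± 0.38, adjusted p = 1.4e-05). Platelet genes summed to 65.9 to 2422 CPM in macrophages and 0 to 88.8 CPM in DC with gates set on all UMIs, Pf4 being the only one of the list detected in 3 of 4 macrophage samples, and their part in these values was not tested.

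Among lymphocytes, B cells had more Ctss, Ctsz and Ctsc and less Ctsd than T cells. Ctss was at 546, 477, 509 and 523 CPM in B cells and 151, 121, 174 and 145 CPM in T cells, with no overlap (log2 1.84 ± 0.09, adjusted p = 3.6e-06). Ctsz was at 310.2, 274, 496 and 386 CPM against 47.9, 46.9, 90.2 and 75.9 CPM (2.55 ± 0.09, adjusted p = 6.4e-07). Ctsc was at 202 to 271 against 48.3 to 96.5 CPM (1.77 ± 0.13, adjusted p = 3.4e-05). Ctsd was lower in B cells, at 45.1, 52.4, 71.3 and 56.3 against 255, 256, 351 and 345 CPM (-2.39 ± 0.09, adjusted p = 1.1e-06), and Ctsb slightly lower (-0.40 ± 0.09, adjusted p = 0.0097). The Ctsb call failed without either young sample and without the pool in the fit. Of 7 tested members 5 differed, where 32.2% of 2526 genes did. Ctsh was not tested because under 10% of T cells had a UMI, but its 423 to 453 CPM in B cells lay far above the 14.2 to 33.0 CPM in T cells.

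Other lysosomal genes differed in both directions between B and T cells. Ctso, a further cathepsin, was at 107 to 127 CPM against 22.1 to 38.4 CPM (log2 1.81 ± 0.14, adjusted p = 4.3e-05). Of 8 tested subunits of the vacuolar ATPase 6 were higher and 1 lower (median 0.27, all genes 0.013). Fuca1, a lysosomal enzyme that cuts fucose from glycans, was higher (1.37 ± 0.11, adjusted p = 4.3e-05). Cst3 was higher too (1.16 ± 0.09, adjusted p = 4.1e-05). Of 9 tested membrane and accessory proteins 3 were higher and 2 lower, Laptm5 (-1.04 ± 0.22, adjusted p = 0.0085) and Npc2 (-1.01 ± 0.17, adjusted p = 0.0027), beside 32.2% of all genes called.

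NK cells had more Ctsw, Ctsd and Ctsc than T cells. Ctsw, a cathepsin of cytotoxic lymphocytes, was at 863, 545, 704 and 770 CPM in NK cells and 186, 168, 233 and 218 CPM in T cells (log2 1.63 ± 0.12, edgeR adjusted p = 8.5e-12). It was at 2.34 to 11.1 CPM in B cells and had no UMI in DC and macrophages, where the 3 UMIs that a count of 0 allows in a sample of DC correspond to 22.2 to 68.3 CPM. Ctsd was at 1127, 1011, 1528 and 1060 CPM in NK cells, above every T cell value (1.78 ± 0.11, adjusted p = 4.5e-13), and Ctsc at 163, 142, 292 and 218 CPM (1.31 ± 0.16, adjusted p = 2.8e-07). Ctss (-1.91 ± 0.23) and Ctsb (-0.94 ± 0.20) were lower. The 5 calls among 8 tested members compare with 25.9% of 2464 genes. Gzma, a granzyme that Ctsc activates, was at 11375 to 18076 CPM in NK and 193 to 614 CPM in T cells, and Cst7 (cystatin F), the inhibitor of cathepsins in these granules, at 198 to 389 against 80.4 to 149 CPM (1.27 ± 0.14, adjusted p = 4.7e-08).

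Within T cells, Cd8 cells had more Ctsw and Ctsd than Cd4 cells. Ctsw was at 259, 244, 302 and 370.3 CPM in Cd8 and 77.2, 82.5, 100.1 and 47.4 CPM in Cd4 T cells (log2 1.86 ± 0.17, adjusted p = 5e-07). Ctsd was at 258, 289, 422 and 439 against 175, 212, 208 and 225 CPM (0.77 ± 0.13, adjusted p = 0.00079). These were 2 of 8 tested members, where 7.66% of 2701 genes differed. Within B cells, those with at least 2 UMIs of S100a6, a calcium-binding protein, and no Fcer2a had more Ctsb (0.55 ± 0.13, adjusted p = 0.01) and less Ctsa (-1.01 ± 0.17, adjusted p = 0.0016) than those with Fcer2a, the low-affinity IgE receptor, and no S100a6. Ctsa was at 33.4, 60.4, 65.0 and 50.9 CPM in the former and 130.2, 114, 103 and 112 CPM in the latter, while 31.3% of 2482 genes differed. The Ctsb call failed without old sample 2 (adjusted p = 0.065). Lgmn, the asparaginyl protease that matures several cathepsins, was also lower (-1.21 ± 0.14, adjusted p = 0.0002).

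The B, T and NK gates took no cell with a UMI of Csf1r, Clec4a1 or Clec4a3, so lymphocytes with those monocyte UMIs are left out below. Free RNA of monocytes was judged with 7 monocyte genes that no gate used, among them Fn1, F13a1 and Chil3. Their summed level in B cells was 0.091%, 0.456%, 0.702% and 0.766% of that in classical monocytes of the same sample, in young 1, young 2, old 1 and old 2. Lyz2 in B cells lay somewhat above them in each sample, at 0.138%, 0.546%, 0.967% and 0.943%. In T cells it stood at 0.141%, 0.423%, 0.843% and 0.525% beside 0.206%, 0.450%, 0.705% and 0.443% for the panel. The Lyz2 level of lymphocytes is therefore read as background. The share of B cells with a Lyz2 UMI, 4.94% to 23.7% after thinning each cell to 1000 UMIs, is read the same way, next to 5.14% to 23.3% of T cells. The median depths were 2390 UMIs in B and 2788 UMIs in T cells.

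A few lymphocytes held far more Lyz2 than the others. At least 10 Lyz2 UMIs were found in 0, 1, 6 and 2 B cells and in 1, 1, 0 and 0 T cells, and in no NK cell. Without them the Lyz2 level of B cells was 53.1, 146, 272 and 174 CPM. In old sample 2 these 2 cells held 692 of the 1659 Lyz2 UMIs of all 1381 B cells.

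Ctss, Ctsh and Ctsz in B cells lay far above the monocyte panel. Ctss in B cells was 24.6% to 29.0% of the classical level and Ctsh 68.7% to 78.1%. If all Lyz2 in B cells had come with other monocyte RNA, it would have brought 368 of the 13986 Ctss UMIs, 117 of the 11861 Ctsh UMIs and 122 of the 11009 Ctsz UMIs. Ctsd in T and NK cells lay above the classical level, at 138% to 168% and 425% to 743%. The low members in T and NK cells were less clear of it. The share carried with monocyte RNA reached 22.3% of the Ctsh UMIs of T cells in the sample where it was highest. For Ctss, Ctsh and Ctsz in NK cells it reached 30.1%, 32.5% and 34.0%. Free RNA of B cells, which held 66.3%, 62.8% and 50.6% of all Ctsh, Ctsz and Ctss UMIs, was not counted. Cd79a, a gate gene of B cells, was at 2962 to 3259 CPM there. It was at 68.0 to 101 CPM in T and 68.6 to 122 CPM in NK cells. The part of B cell RNA in these levels was not tested. The levels of Ctsh in T cells and of Ctss, Ctsh and Ctsz in NK cells are therefore upper values.

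**Figure D4:**
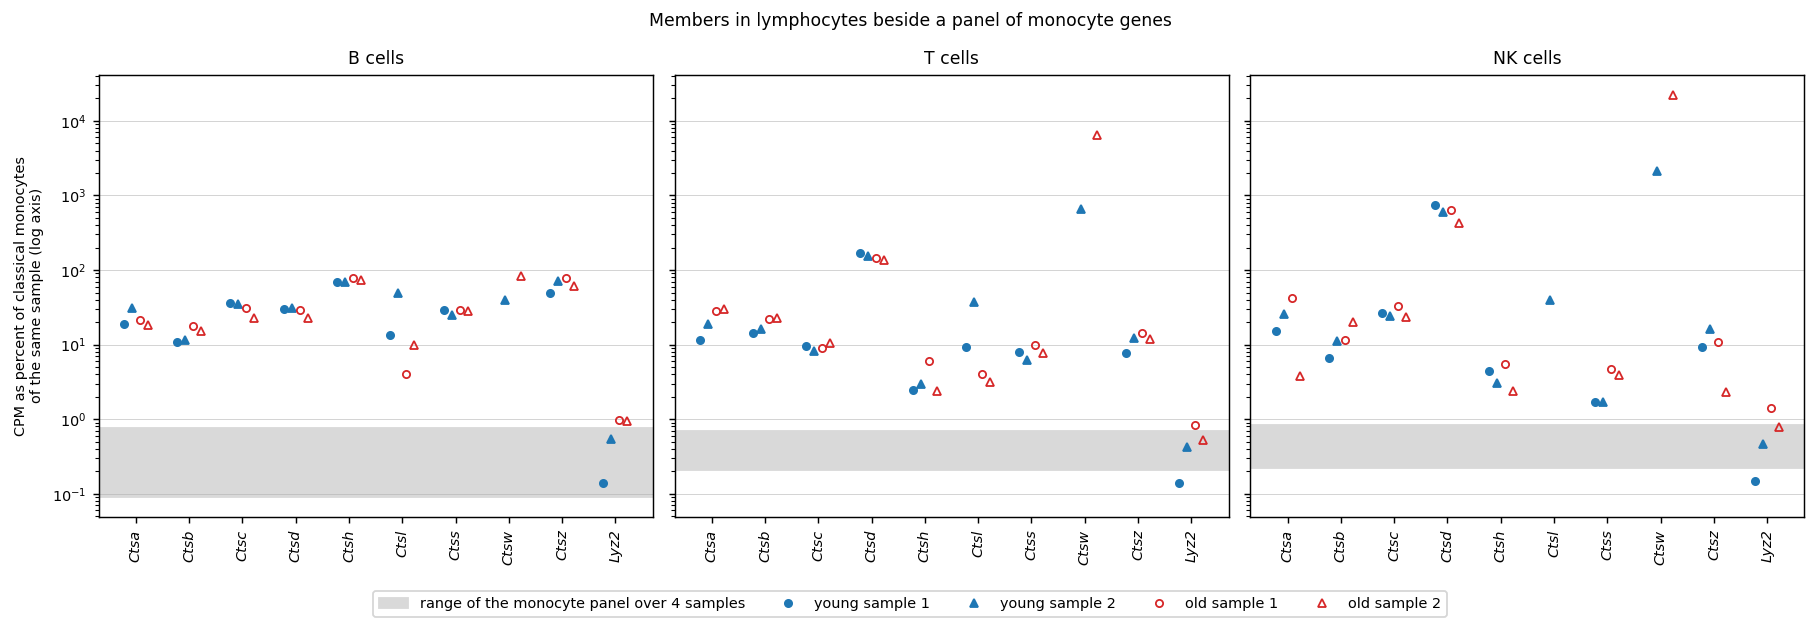
Level of each member in B, T and NK cells as percent of its level in classical monocytes of the same sample (log axis), with 1 point per sample, and the range of the monocyte panel in grey. Lyz2 lies in or near the grey band, up to 1.41% in NK cells, and Ctsh, Ctsz, Ctss and Ctsc in B cells and Ctsd in all 3 gates lie at 22.4% or more, where points at 0 or without a classical UMI are not drawn.

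With age, no member passed in monocytes or DC. In classical monocytes 0 of 8 members were called by edgeR (2 at an unadjusted p under 0.05, 0 in DESeq2), as were 0.418% of 3346 genes. Ctsc came closest, with both old values (877 and 929 CPM) above both young ones (607 and 581 CPM), a log2 fold change of 0.64 ± 0.14, an unadjusted edgeR p of 0.00028 and an adjusted p of 0.058. It was called without young sample 1 or 2 (adjusted p = 0.011 and 0.022) and, with up to 5 Cd79a and Cd79b UMIs allowed in a monocyte, at 0.67 ± 0.14 (adjusted p = 0.02). Neutrophil genes summed to 101 CPM in both young and 340 and 289 CPM in old classical monocytes, and their part in the Ctsc values was not tested. Ctsd was 152 and 168 CPM in young and 241 and 250 CPM in old classical monocytes (0.64 ± 0.24, adjusted p = 0.37). Lyz2 (-0.15 ± 0.11) and Ctss (-0.05 ± 0.12) had adjusted p-values of 0.77 and 0.98.

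In nonclassical monocytes 0 of 8 members passed in edgeR (3 at an unadjusted p under 0.05, 0 in DESeq2), and 0.0373% of 2684 genes did, which is 1 gene. Ctsc again had both old values (226 and 403 CPM) above both young ones (155 and 182 CPM), at 0.93 ± 0.31 (adjusted p = 0.70), and was called without old sample 1 (1.36 ± 0.24, adjusted p = 0.01). Old sample 2 was also the one with the most Ccr2 (540 against 90.3 to 192 CPM) and Chil3 (615 against 71.6 to 270 CPM) in this gate, both genes of classical monocytes. The part of those cells in the Ctsc value was not tested. In the test of the difference between the subsets in the age effect, 0 of 8 members passed (edgeR adjusted p = 0.56 to 1.00, 4 at an unadjusted p under 0.05), as did 0.107% of 2814 genes. Without old sample 1 Lyz2 passed there (0.62 ± 0.14, adjusted p = 0.00081). In DC 0 of 9 members and 0.0% of 3826 genes passed in edgeR, with 131 genes at an unadjusted p under 0.05, and DESeq2 called 0 as well. The SE of the DC values ranged from 0.22 to 0.86.

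In B cells 2 of 8 members rose with age, where 8.43% of 2586 genes were called and 3.94% rose. Ctsw, at 2.34 to 11.1 CPM, was detected in too few B cells to be among the 8. With edgeR's own filter for low counts it was tested and called lower in old B cells (-1.97 ± 0.29, edgeR adjusted p = 0.014). Ctsb was at 72.3 and 78.3 CPM in young and 116 and 109 CPM in old B cells (0.66 ± 0.12, adjusted p = 0.035), and Ctsz at 310.2 and 274 against 496 and 386 CPM (0.68 ± 0.13, adjusted p = 0.038). Cells with S100a6 and no Fcer2a were 4.64% and 3.09% of all young and 37.1% and 22.0% of all old cells. Within these cells Ctsb differed by 0.56 ± 0.21 (adjusted p = 0.34) and Ctsz by 0.84 ± 0.19 (adjusted p = 0.096), and within cells with Fcer2a by 0.15 ± 0.19 and 0.27 ± 0.10 (adjusted p = 0.87 and 0.42), where 0.381% and 0.212% of genes were called. Both calls held in DESeq2. They failed without young sample 1 (adjusted p = 0.23 and 0.089), without young sample 2 (0.060 and 0.10) and without droplets that held platelet RNA (0.054 and 0.058). Platelet genes summed to 1.46 and 11.1 CPM in young and 653 and 415 CPM in old B cells, and without the droplets that held their RNA the differences were about as large (0.64 ± 0.12 for Ctsb and 0.68 ± 0.14 for Ctsz). Lyz2 had an age difference of 1.44 ± 0.51 in B cells (adjusted p = 0.13), beside a monocyte panel at 2.92 and 16.8 CPM in young and 31.7 and 38.3 CPM in old B cells. It was called without young sample 2 (2.62 ± 0.24, adjusted p = 1.9e-06).

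In T cells 2 of 8 members rose, where 8.13% of 2658 genes were called and 3.65% rose. Ctsa was at 63.5 and 56.4 CPM in young and 101 and 114 CPM in old T cells (0.74 ± 0.14, adjusted p = 0.015) and Ctsz at 47.9 and 46.9 against 90.2 and 75.9 CPM (0.73 ± 0.16, adjusted p = 0.027). All 8 members had a positive age difference in T cells, with a median of 0.55 against -0.004 over all genes. Lyz2 is included, whose level there lay near the monocyte panel and is not read as expression by T cells. The T cell gate held other subsets in each age. Cd4 cells without S100a6 numbered 185 and 116 in young and 8 and 8 in old samples, and Cd8 cells low in Ccl5, a chemokine of memory and effector cells, 184 and 79 in young and 3 and 4 in old samples. Neither call held in DESeq2 (adjusted p = 0.056 and 0.13) or without either old sample (Ctsa 0.092 and 0.11, Ctsz 0.22 and 0.11). Ctsa was also lost without young sample 2 (0.051) and Ctsz without young sample 1 (0.096). Within all Cd8 T cells the differences were 0.08 ± 0.24 for Ctsa and 0.71 ± 0.27 for Ctsz, and within all Cd4 T cells 0.77 ± 0.35 for Ctsa, none of them called, where 0.837% and 3.43% of genes were. In Cd4 cells without S100a6 and Cd8 cells with Ccl5 0.778% and 0.268% of genes and none of the members were called. Platelet genes summed to 2.6 and 5.64 CPM in young and 490 and 335 CPM in old T cells, and without droplets with platelet RNA Ctsz differed by 0.63 ± 0.17 (adjusted p = 0.072).

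**Figure D5:**
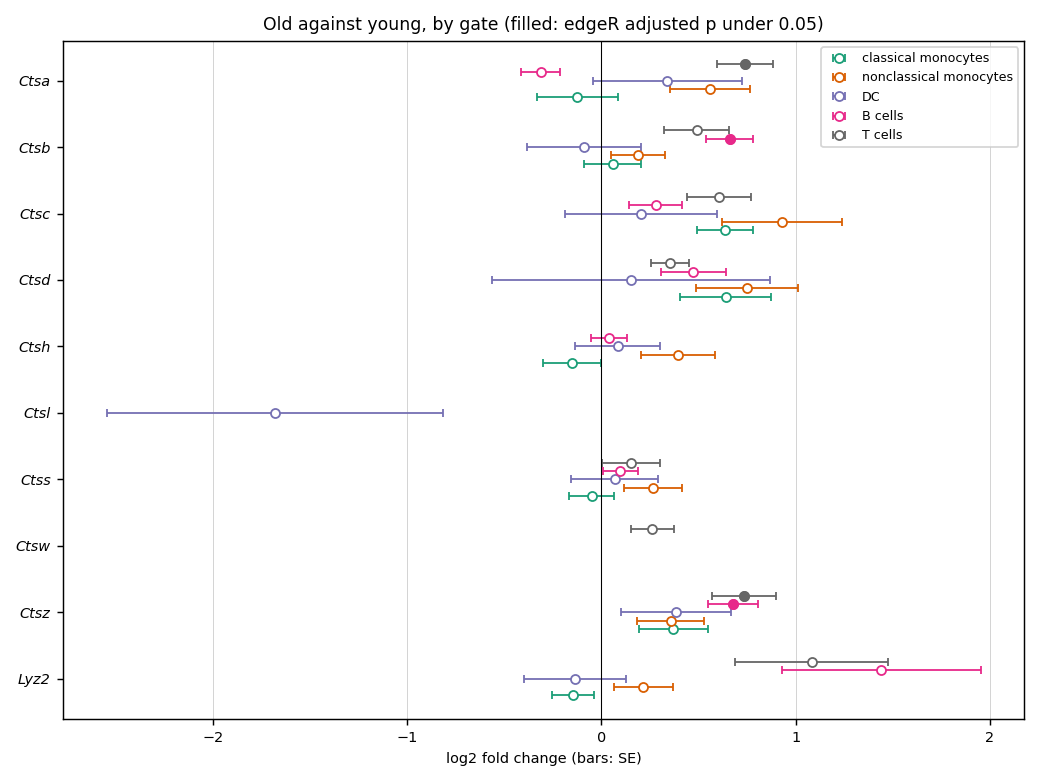
Log2 fold change of each tested member, old against young, in 5 gates, with its SE as bars and filled points where the edgeR adjusted p was under 0.05. The 4 filled points are Ctsb and Ctsz in B cells and Ctsa and Ctsz in T cells, and Ctsc lies to the right of 0 in all 5 gates.

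The lists of other lysosomal genes held few age calls, beside 8.43% of all genes called in B cells and 8.13% in T cells. Of 8 tested lysosomal membrane and accessory proteins in B cells 1 rose, the saposin precursor Psap, from 347 and 339 to 556 and 546 CPM (0.76 ± 0.09, adjusted p = 0.013). Of 10 tested subunits of the vacuolar ATPase 1 rose, Atp6v0e (0.56 ± 0.12, edgeR adjusted p = 0.045). Of 3 tested protease inhibitors 1 fell, Serpinb1a, from 299 and 261 to 137 and 167 CPM (-0.80 ± 0.13, edgeR adjusted p = 0.028). S100a6 B cells had less Serpinb1a and more Psap than Fcer2a B cells (-1.68 ± 0.10 and 0.64 ± 0.11, adjusted p = 4.3e-06 and 0.0013). Of 10 tested membrane and accessory proteins in T cells 1 fell, Npc2 (-0.68 ± 0.10, edgeR adjusted p = 0.0051), and 1 rose, Laptm5 (0.42 ± 0.07, adjusted p = 0.011). The granule proteoglycan serglycin, Srgn, also rose in T cells (0.70 ± 0.13, edgeR adjusted p = 0.012). It was the 1 tested gene of a list of granzymes and granule genes.

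Across 32 sums of the 9 gates in the samples, the genes whose pattern was most like that of a member were found among 4540 genes. The 32 sums share libraries and depth, so the correlations are a description. Ctsb was most like Csf1r (Pearson r of log2 CPM 0.96), Ctsh most like Ly86 and Unc93b1 (0.98 and 0.98), Ctss most like Cybb (0.96), Ctsw most like Ppm1j and Il2rb (0.96 and 0.95), and Lyz2 most like Cd302 and Mpeg1 (0.98 and 0.97). Csf1r is a gate gene that B, T and NK cells had to lack, so its likeness to Ctsb was partly set by the gates. The next gene for Ctsb was Lrp1 (0.96), which no gate used. Ctsd had no gene above 0.84, which was Hcst. Among the members the highest r was 0.94, between Ctsb and Lyz2, and the lowest was -0.88, between Ctsw and Ctsz.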

How the data were processed

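Single-cell RNA sequencing was performed on blood cells of 2 young and 2 old pooled samples. Per the labels and methods, the authors counted UMIs with Cell Ranger (mm10), aggregated the pools of an age, and filtered cells by genes detected and mitochondrial share in Seurat 2.3.0. Which gene annotation they used was not stated. These deposited counts entered unchanged, and each cell's sample was read from the deposited cell list. The 10 members, the gates and the gene lists were chosen with earlier results of these data known.

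Gates used raw UMIs. Monocytes needed at least 2 of Csf1r, Clec4a1 and Clec4a3, DC at least 2 Cd209a, and macrophages at least 10 C1q UMIs. B cells needed at least 3 Cd79a and Cd79b UMIs and T cells at least 2 Cd3 UMIs. Myeloid cells held at most 2 Cd79 UMIs and no Cd3 UMI. B, T and NK cells held no UMI of Csf1r, Clec4a1 or Clec4a3. Doublets were not called. Cells with mixed B, T and myeloid markers beyond these limits met no gate. Leaving out the deepest 4% of cells per gate was an alternative. UMIs were summed per sample and gate and tested with edgeR 4.0.16 (quasi-likelihood, TMM, two-sided, Benjamini-Hochberg within a comparison, threshold 0.05), with the pool as a block between gates. A gate needed at least 5 cells in a sample, and a gene UMIs in at least 10% of the cells of each side. DESeq2 1.42.0 was an alternative. The test was checked on simulated data.

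CPM are UMIs per 1000000 UMIs of a gate in a sample. Sample totals were 9521253 to 18658072 UMIs, which sets the precision, and limits of counts of 0 (3 UMIs) cover counting error only. Shares were compared after thinning cells to 1000 UMIs; no cell was shallower. Counts come from 3′ ends, so levels were compared between gates for the same gene. Genes named were the 10 members, the check genes, the 3 genes most like each member over sums of log2(CPM + 10), and, of each list, up to 3 called genes with the largest change. Some list genes are not reported here.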

Additional observations from a re-analysis of the deposited data

How the results depend on the processing

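The calls between gates were the steadiest: Ctsb, Ctsc and Lyz2 in nonclassical monocytes kept their direction and side of the threshold in every alternative run. In edgeR, DC against classical monocytes gave 5 called members, with 2 in DESeq2, 2 with stricter gates and 2 to 4 when 1 sample was left out. B against T cells gave 5, and 8 with no low filter. S100a6 against Fcer2a B cells gave 2, and 1 to 3 with 1 sample left out.

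Age calls moved most. Classical monocytes had 0 called members, 1 with no low filter, 1 with up to 5 Cd79 UMIs in myeloid gates (added after seeing the data) and 0 to 2 with 1 sample left out. Nonclassical monocytes had 0, 1 with no low filter and 0 to 1 with 1 sample left out, and the age difference between subsets 0 and 0 to 1. B cells had 2, with 4 with no low filter, 0 with gates on thinned cells, 0 without platelet-positive droplets, 0 within Fcer2a B cells, 0 within S100a6 B cells and 0 to 4 with 1 sample left out. T cells had 2, with 0 in DESeq2, 0 with stricter gates, 1 with gates on thinned cells, 1 without platelet-positive droplets, 5 without the deepest 4% of cells and 0 to 3 with 1 sample left out. Within Cd4 cells without S100a6, all Cd4 cells, all Cd8 cells and Cd8 cells with Ccl5 (the last 3 added later) T cells had 0, 0, 0 and 0. Fewer cells or samples entered the divided and left-out fits. The cause of the changes in calls was not tested.

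The replicate number as a block gave 0 called members in T cells, where 32 of all genes were called against 216, 3 in B cells and 0 in the other age comparisons. Same-numbered samples did not deviate together (correlations of -0.05, 0.06, 0.02 and -0.14 in classical and nonclassical monocytes, B and T cells). The numbers crossed between ages gave 5 called members and 351 genes in T cells.

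Directions turned within smaller gates: Ctsa in S100a6 B cells (0.36), Ctsa (-0.042), Ctsb (-0.48) and Ctsc (-0.11) in Cd8 T cells with Ccl5, Ctsb in Cd8 T cells (-0.20), Ctsd (-0.0049) and Ctsw (-0.17) in Cd4 T cells, and Ctsw in Cd4 cells without S100a6 (-0.89). Leaving out 1 sample also brought calls for Ctsz with age in classical monocytes (0.75, without young 1), Ctss in nonclassical monocytes against classical ones (-0.26, without old 2), Ctsa (-0.36, without old 1), Ctsc (0.44, without old 2) and Ctsd (0.61, without old 2) with age in B cells, Ctsb (0.67, without young 2) and Lyz2 (0.52 and 1.94, without young 1 or 2) with age in T cells, Ctsb in Cd8 against Cd4 cells (-0.94, without young 2), Ctsz in S100a6 B cells (0.51, without young 1) and Lyz2 in B against T cells (0.51, without young 1). Over the members with an unadjusted p under 0.05, 512 alternative values kept direction and side, 52 lost and 30 gained the call, and 8 turned.

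Counts of all called genes ranged, over settings other than left-out samples and divided gates, from 1 to 85 against 14 in classical monocytes, 84 to 1121 against 218 in B cells, 32 to 721 against 216 in T cells, 194 to 1046 against 807 between monocyte subsets, 69 to 547 against 295 for DC, 626 to 3797 against 814 for B against T, 423 to 1461 against 639 for NK against T, 38 to 388 against 207 for Cd8 against Cd4, 517 to 1883 against 776 between the B cell sets, 1 to 40 against 1 in nonclassical monocytes and 0 to 13 against 0 in DC (131 at an unadjusted p under 0.05). Not thinning cells moved 134 of 150 shares of cells with a UMI by more than 1 SD. Macrophages against DC could be fitted only with gates on thinned cells, where 3 members were called, and the age fits could not be made for classical monocytes and DC with gates on thinned cells, for DC with stricter gates, or within Cd8 T cells low in Ccl5, because a sample held under 5 cells. Few cells limit DC, macrophages and basophils.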

Other observations

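Cells that met no gate held 30.3% of all Lyz2 UMIs. Of these 2469 cells, 359 had at least 10 Lyz2 UMIs, of which young samples 1 and 2 held 54 and 92, and old samples 1 and 2 164 and 49. Of the 359 cells, 172 carried at least 2 UMIs of the monocyte gate genes together with more than 2 UMIs of Cd79a and Cd79b, and 103 of those were in old sample 1. Another 77 carried the monocyte genes with a Cd3 UMI, and 110 had under 2 UMIs of the monocyte genes. They entered no comparison.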
